A study of Mus musculus with 10 samples.

Results

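Genes of mitochondrial and peroxisomal fatty acid oxidation were followed in hearts of mice that lacked PKCz, an atypical protein kinase C, and of their wild-type littermates, after infusion of angiotensin II (AngII) or of PBS. The set held 33 gene symbols, from the uptake of fatty acids to the last step of the oxidation spiral. Each gene was read on 1 Affymetrix probe set, its brightest by mean over the 10 arrays, and only probe sets annotated with a single symbol were used. In this way 31 of the 33 genes were measured, out of 18193 genes on the arrays. Acsl1 and Cpt1b, which encode the main acyl-CoA synthetase and the main carnitine palmitoyltransferase 1 of heart muscle, are not analysed here, and the probe set that names Cpt1b carries several symbols.

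The working heart draws most of its ATP from long-chain fatty acids. Fatty acids released from lipoproteins or albumin cross the cell membrane, are bound by a carrier protein, are activated to acyl-CoA and pass into mitochondria as carnitine esters. Inside, each turn of the spiral removes an acetyl-CoA by dehydrogenation, hydration, a further dehydrogenation and thiolysis, and electrons leave through the electron transfer flavoprotein to the respiratory chain. Peroxisomes shorten very long chains by a related path. Many of these genes are targets of the PPAR and estrogen-related nuclear receptors, and in rodent models of cardiac hypertrophy their transcripts are often lower.

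All mice were male, of the SV129 strain and 32 weeks old. The groups were KO AngII (PKCz -/-, AngII at 432 µg/kg/day, n = 2 arrays), KO PBS (PKCz -/-, PBS, n = 3), WT AngII (wild type, the same AngII dose, n = 3) and WT PBS (wild type, PBS, n = 2). Delivery was subcutaneous and continuous for 14 days from implanted minipumps, and AngII was dissolved in PBS. The source label of the controls calls them untreated while their titles name PBS. The sources used here do not say how the PKCz -/- allele was made, nor whether arrays of a group came from separate animals, so p-values measure the spread between these arrays, which may be technical. Each array is called by its group and the number in its title, and values are always listed in the order KO AngII 3 and 4, KO PBS 2, 3 and 4, WT AngII 2, 3 and 4, and WT PBS 3 and 5. Values are log2 expression made with RMA, a difference of 1 being a doubling, and differences are given ± SE of a limma fit over the 10 arrays. A gene was called where the Benjamini-Hochberg adjusted p over 45037 probe sets was under 0.05.

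The genotype labels were checked on the targeted gene, Prkcz, which read 5.81 ± 0.07 on KO arrays and 6.35 ± 0.09 on WT arrays (SD, n = 5 each; difference −0.53 ± 0.09, two-sided exact permutation within treatment p = 0.01, the smallest that 100 arrangements allow; limma adjusted p = 0.126). This was the brightest of 3 Prkcz probe sets by mean over the 10 arrays. On the others KO minus WT was 0.10 and −0.09 (exact permutation p = 0.12 and 0.18). Cardiomyocyte markers were near the top of the scale on every array, with a mean over 10 genes of 13.99 to 14.10. Arrays differed in a technical measure, the signal of 24 polyadenylated spike-in probe sets: it was 6.90 to 7.08 on KO AngII 3, KO AngII 4 and KO PBS 4 and 12.86 to 13.33 on the other 7 arrays. Within the AngII arrays alone, genotype and this spike-in level cannot be told apart, as both KO AngII arrays were low and all WT AngII arrays high. Only the KO PBS group held both levels, so a block for this level rests on KO PBS 4 against KO PBS 2 and 3. Ribosomal 18S signal was 7.70, 7.53 and 6.65 on WT AngII arrays against 9.39 and 8.18 on WT PBS arrays, without overlap. In KO it overlapped, at 7.49 and 7.28 under AngII against 8.07, 7.99 and 7.48 under PBS. Actin 3' minus 5' signal ranged from 0.74 to 0.83 for the 3 arrays of low spike-in signal, against 0.92 to 1.70 elsewhere. The part of these signals in the members' differences was not tested. The array WT AngII 2 stood apart from the rest. Its 9 fibroblast and matrix markers lay at a median of 2.57 above their means over all arrays, all 9 above, and its 8 macrophage markers at 1.16, all 8 above, against −0.64 to 0.56 and −0.41 to 0.05 on the other arrays.

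On the arrays the members moved within a narrow range. The spread of a member over the 10 arrays, highest minus lowest value, was 0.25 to 1.49 with a median of 0.77, and its within-group SD was 0.08 to 0.31 with a median of 0.17. The median deviation of the 31 members from their own means was −0.05 and −0.04 on KO AngII arrays, 0.06, 0.23 and 0.11 on KO PBS arrays, −0.37, −0.14 and −0.02 on WT AngII arrays, and 0.08 and 0.09 on WT PBS arrays. Every AngII array was therefore below every PBS array in this median, and the genotypes overlapped. WT AngII 2 was the lowest of the 10 arrays for 18 of the 31 members and the highest for 3, Acsl3, Acsl5 and Crot. KO PBS 3 was the highest for 15. This is RNA of heart tissue in bulk, so that fewer cells of a type and less RNA per cell cannot be told apart.

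**Figure D1:**
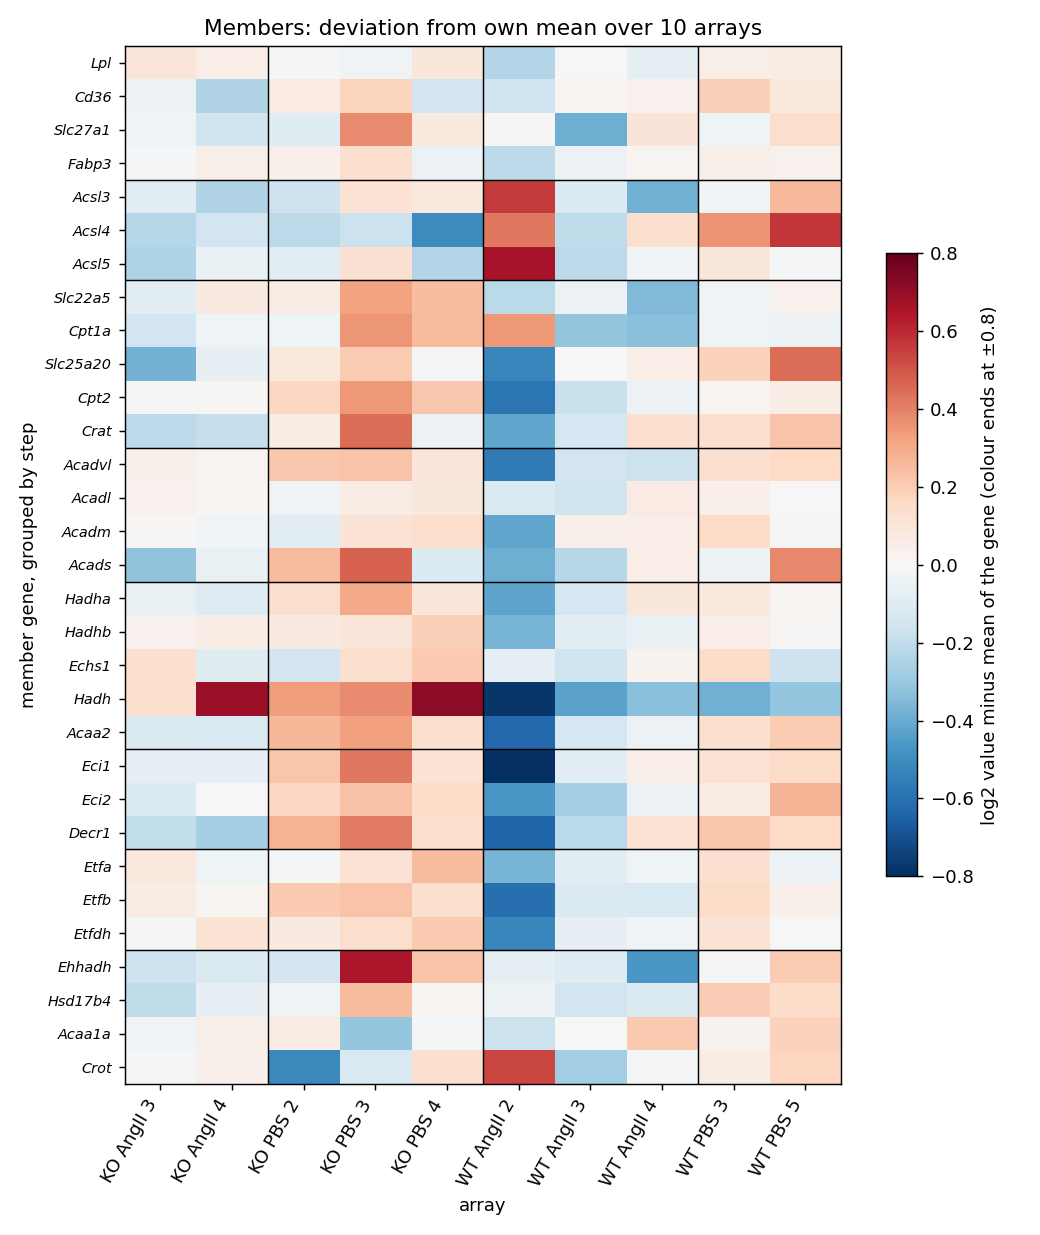
Deviation of each of the 31 members (rows, grouped by step) from its own mean on each of the 10 arrays (columns, by group), in log2 units; red is above the mean, blue below, and the colours end at 0.8 in either direction. The column WT AngII 2 is blue for most members and red for the acyl-CoA synthetases, Cpt1a and Crot, and the row of Hadh is red on the 5 KO arrays and blue on the 5 WT arrays.

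AngII was compared with PBS within each genotype. In KO hearts the differences of 27 of 31 members were under 0 and their median was −0.18. In WT hearts 30 of 31 were, and the median was −0.21. The 28 other probe sets of 20 members had medians of −0.07 in KO and −0.14 in WT. Of them 18 in KO and 22 in WT had the sign of the probe set used. Over all 18193 genes the median was −0.0089 in KO and −0.0045 in WT, with 9470 and 9279 genes below 0. No member was called in either genotype (0 of 31 each; 0% of all probe sets were called in KO and 0% in WT), and the smallest adjusted p of a member was 0.892 in KO and 0.924 in WT. At an unadjusted p under 0.05 stood 2 members in KO, both lower, where 2.4% of all probe sets were lower and 2.17% higher. In WT there were 6, all lower, where 3.52% of probe sets were lower and 1.71% higher. AngII and PBS arrays did not overlap for 13 members in KO, all lower (13.5% of genes were apart and lower, 12.5% apart and higher), and for 17 members in WT, all lower (12.7% and 7.87% of genes). Between genotypes these comparisons have no array in common. Both differences were below 0 for 26 of 31 members, against 34.9% of all genes, and 11 members were apart and lower in both, against 4.11% of genes. These were Slc25a20, Cpt2, Crat, Acadvl, Hadhb, Acaa2, Eci1, Eci2, Decr1, Etfb and Hsd17b4. Among 38 measured subunits of the respiratory chain, both differences were below 0 for 25 (65.8%, against 83.9% of members). Of these subunits 6 were apart and lower in both (15.8%, against 35.5% of members).

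**Figure D2:**
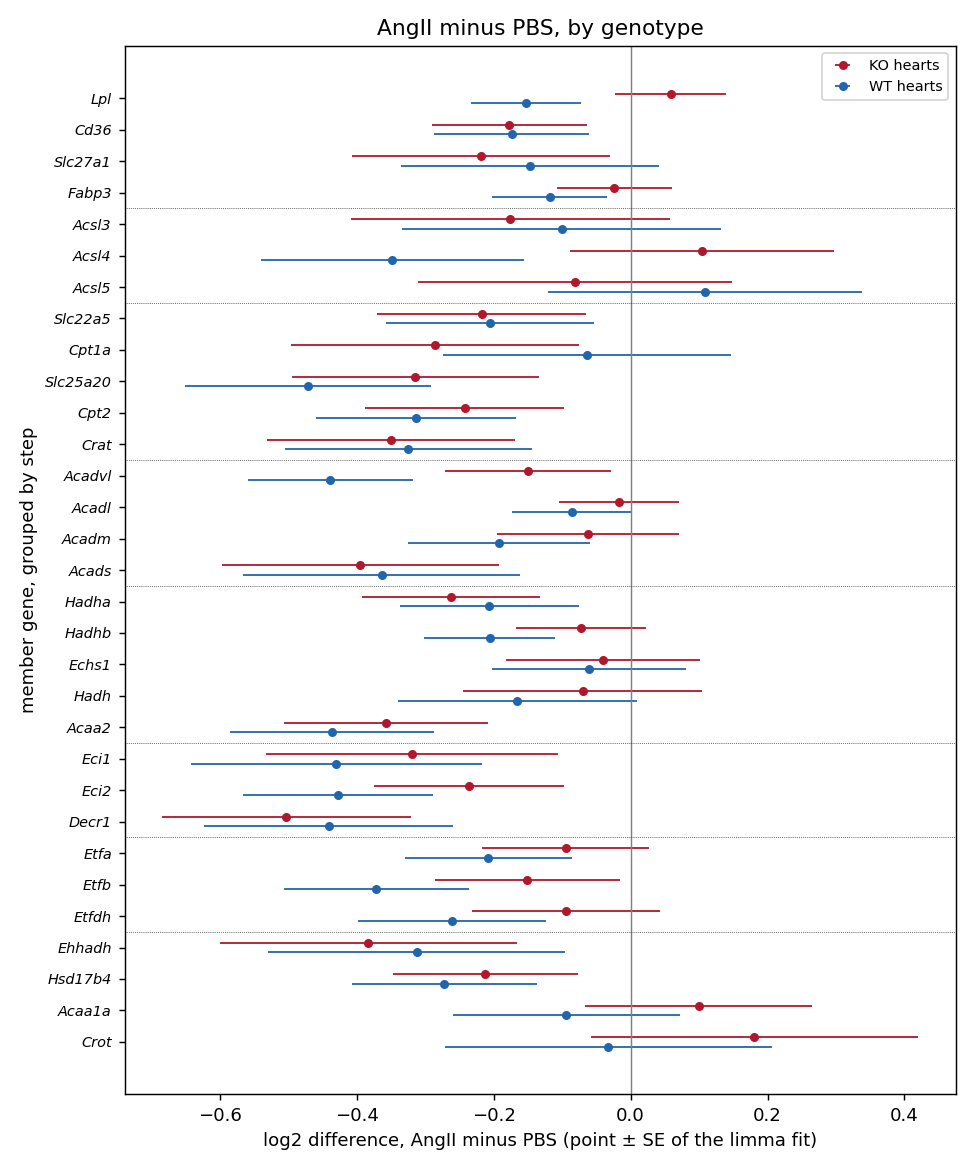
AngII minus PBS for each of the 31 members (rows, grouped by step), as the log2 difference (point) ± SE of the limma fit (line), in KO and in WT hearts. Nearly all points lie left of 0 in both genotypes, at medians of −0.18 in KO and −0.21 in WT, and the 4 points right of 0 in KO are those of Lpl, Acsl4, Acaa1a and Crot.

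Genes of uptake and binding differed little between infusions. By mean over the arrays, Lpl (14.01) and Fabp3 (13.93) lay at percentile 99.9 of all probe sets. Whether such bright signals understate differences was not tested. Lpl, the lipase that frees fatty acids from lipoproteins, read 14.11 and 14.06 on KO AngII arrays against 14.00, 13.98 and 14.10 on KO PBS arrays, and 13.77, 14.01 and 13.94 on WT AngII arrays against 14.05 and 14.07 on WT PBS arrays. The KO groups overlapped, and in WT all AngII arrays were below the PBS arrays by a small margin (−0.15 ± 0.08). The fatty acid transporter Cd36 differed by −0.18 ± 0.11 in KO and −0.17 ± 0.11 in WT. Slc27a1, a transport protein with acyl-CoA synthetase activity, differed by −0.22 ± 0.19 in KO and −0.15 ± 0.19 in WT. For Fabp3, the cytosolic fatty acid carrier of the heart, the differences were −0.02 ± 0.08 in KO and −0.12 ± 0.08 in WT. The step as a whole had medians of −0.10 in KO and −0.15 in WT, or −0.10 in WT without WT AngII 2.

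The acyl-CoA synthetases, which activate fatty acids, had medians of −0.08 in KO and −0.10 in WT and large errors. Acsl4 stood on opposite sides of 0, at 0.10 ± 0.19 in KO and −0.35 ± 0.19 in WT. Acsl3 differed by −0.18 ± 0.23 in KO and −0.10 ± 0.23 in WT, and Acsl5 by −0.08 ± 0.23 in KO and 0.11 ± 0.23 in WT. Acsl5 was the 1 member above 0 in WT, and it read 9.26 on WT AngII 2 against 8.39 and 8.58 on WT AngII 3 and 4. Without WT AngII 2 all 3 synthetases lay below 0 in WT, Acsl3 at −0.37, Acsl4 at −0.50 and Acsl5 at −0.15, and the median of the step moved to −0.37.

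Carnitine supply and shuttling held some of the larger differences, with all 5 measured genes below 0 in both genotypes and medians of −0.29 in KO and −0.31 in WT, or −0.20 in WT without WT AngII 2. Slc25a20, the translocase that exchanges acylcarnitine for carnitine at the inner membrane, had the largest difference of any member in WT over all arrays (−0.47 ± 0.18, 1.39-fold lower, 95% interval −0.86 to −0.08, limma adjusted p = 0.93), and without WT AngII 2 it stood at −0.29, behind Acsl4 and Acsl3 among others. It differed by −0.31 ± 0.18 in KO. It read 10.77 and 11.08 on KO AngII arrays against 11.23, 11.35 and 11.13 on KO PBS arrays, and 10.62, 11.15 and 11.20 on WT AngII arrays against 11.33 and 11.59 on WT PBS arrays. The arrays of the AngII groups were thus below those of the PBS groups in both genotypes, with WT AngII 2 the lowest. Cpt2, which turns the carnitine ester back into acyl-CoA, read 11.64 and 11.66 on KO AngII arrays against 11.81, 12.00 and 11.86 on KO PBS arrays, and 11.06, 11.47 and 11.60 on WT AngII arrays against 11.67 and 11.71 on WT PBS arrays. It was also apart in both genotypes (−0.24 ± 0.15 in KO, −0.31 ± 0.15 in WT), and WT AngII 2 was again lowest; without that array the WT difference was −0.16. Crat, which buffers acetyl-CoA as acetylcarnitine, differed by −0.35 ± 0.18 in KO and −0.32 ± 0.18 in WT. Slc22a5, the carnitine importer of the cell membrane, read 8.73 and 8.88 on KO AngII arrays against 8.87, 9.14 and 9.06 on KO PBS arrays, and 8.60, 8.77 and 8.46 on WT AngII arrays against 8.78 and 8.85 on WT PBS arrays. Its KO groups overlapped (−0.22 ± 0.15) and its WT groups did not (−0.21 ± 0.15). Cpt1a, the carnitine palmitoyltransferase 1 form that liver uses most, differed by −0.29 ± 0.21 in KO and −0.06 ± 0.21 in WT, and the WT value was −0.29 without WT AngII 2.

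The acyl-CoA dehydrogenases start each turn of the spiral, and all 4 lay below 0 in both genotypes, at medians of −0.11 in KO and −0.28 in WT, or −0.16 in WT without WT AngII 2. Acadvl, the very-long-chain form at the inner membrane, had the smallest p of any member in WT. It read 12.73 and 12.72 on KO AngII arrays against 12.91, 12.92 and 12.79 on KO PBS arrays, and 12.13, 12.54 and 12.52 on WT AngII arrays against 12.82 and 12.85 on WT PBS arrays. Both genotypes were apart, by −0.15 ± 0.12 in KO and by −0.44 ± 0.12 in WT (1.36-fold lower, 95% interval −0.70 to −0.18, unadjusted p = 0.00354, limma adjusted p = 0.924). Without WT AngII 2 the WT difference was −0.31. Acads, the short-chain form, read 10.13 and 10.40 on KO AngII arrays against 10.71, 10.93 and 10.34 on KO PBS arrays, and 10.07, 10.23 and 10.51 on WT AngII arrays against 10.42 and 10.85 on WT PBS arrays. Its groups overlapped in both genotypes despite differences of −0.39 ± 0.20 and −0.36 ± 0.20 in KO and WT. The medium-chain Acadm differed by −0.06 ± 0.13 in KO and −0.19 ± 0.13 in WT (−0.04 without WT AngII 2), and the long-chain Acadl by −0.02 ± 0.09 and −0.09 ± 0.09.

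Hydration, the further dehydrogenation and thiolysis are carried out on long chains by the trifunctional protein, whose subunits are Hadha and Hadhb, and on shorter chains by Echs1, Hadh and Acaa2. All 5 lay below 0 in both genotypes, at medians of −0.07 in KO and −0.21 in WT, and the WT median was −0.08 without WT AngII 2. Acaa2, the mitochondrial thiolase, read 12.41 and 12.41 on KO AngII arrays against 12.79, 12.85 and 12.65 on KO PBS arrays, and 11.90, 12.38 and 12.48 on WT AngII arrays against 12.65 and 12.73 on WT PBS arrays. It was apart in both genotypes, by −0.36 ± 0.15 in KO (unadjusted p = 0.0341) and by −0.44 ± 0.15 in WT (unadjusted p = 0.0129; limma adjusted p = 0.892 and 0.93). The WT difference was −0.26 without WT AngII 2. Hadha read 12.69 and 12.64 on KO AngII arrays against 12.89, 13.05 and 12.85 on KO PBS arrays, and 12.33, 12.61 and 12.84 on WT AngII arrays against 12.83 and 12.77 on WT PBS arrays. It was apart in KO (−0.26 ± 0.13) and overlapped in WT (−0.21 ± 0.13, and −0.08 without WT AngII 2). Hadhb, the thiolase subunit, read 13.74 and 13.77 on KO AngII arrays against 13.78, 13.80 and 13.90 on KO PBS arrays, and 13.33, 13.62 and 13.65 on WT AngII arrays against 13.76 and 13.72 on WT PBS arrays. It was apart by little in KO (−0.07 ± 0.10) and by more in WT (−0.21 ± 0.10, and −0.11 without WT AngII 2). Echs1, the enoyl-CoA hydratase for short chains, differed by −0.04 ± 0.14 in KO and −0.06 ± 0.14 in WT.

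The auxiliary enzymes feed unsaturated fatty acids into the spiral, and with all arrays they had the lowest medians of any step, −0.32 in KO and −0.43 in WT, with all 3 genes apart and lower in both genotypes. Decr1, the mitochondrial dienoyl-CoA reductase, had the largest difference of any member in KO. It read 11.27 and 11.20 on KO AngII arrays against 11.74, 11.88 and 11.59 on KO PBS arrays, and 10.82, 11.25 and 11.58 on WT AngII arrays against 11.69 and 11.63 on WT PBS arrays. The difference was −0.50 ± 0.18 in KO (1.42-fold lower, 95% interval −0.90 to −0.11, unadjusted p = 0.0173, limma adjusted p = 0.892) and −0.44 ± 0.18 in WT, or −0.24 without WT AngII 2. On its other probe set Decr1 differed by −0.55 in KO and −0.66 in WT. Eci2, an enoyl-CoA isomerase of mitochondria and peroxisomes, read 10.86 and 10.97 on KO AngII arrays against 11.13, 11.20 and 11.12 on KO PBS arrays, and 10.50, 10.69 and 10.92 on WT AngII arrays against 11.02 and 11.24 on WT PBS arrays. Here the WT difference of −0.43 ± 0.14 was −0.33 without WT AngII 2, and the KO difference was −0.24 ± 0.14. Eci1, the mitochondrial isomerase, differed by −0.32 ± 0.21 in KO and −0.43 ± 0.21 in WT, or −0.15 without WT AngII 2, where it read 10.89 against 11.64 to 12.15 on the other arrays. The step median in WT was −0.24 without that array, above the −0.37 of the synthetases and the −0.28 of the peroxisomal genes.

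The electron transfer flavoprotein, which takes electrons from the acyl-CoA dehydrogenases, had medians of −0.09 in KO and −0.26 in WT. Etfb, its beta subunit, read 12.63 and 12.59 on KO AngII arrays against 12.78, 12.80 and 12.70 on KO PBS arrays, and 11.97, 12.46 and 12.45 on WT AngII arrays against 12.72 and 12.61 on WT PBS arrays. It was apart in both genotypes, by −0.15 ± 0.14 in KO and −0.37 ± 0.14 in WT, or −0.21 without WT AngII 2. The alpha subunit Etfa differed by −0.09 ± 0.12 in KO and −0.21 ± 0.12 in WT. Etfdh, which passes the electrons to ubiquinone, differed by −0.09 ± 0.14 in KO and −0.26 ± 0.14 in WT. Without WT AngII 2 the median of the step in WT was −0.10, close to that in KO.

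Peroxisomal genes did not share a direction in KO, where 2 of 4 lay below 0 (median −0.06), while all 4 did in WT (−0.18, and −0.28 without WT AngII 2). Hsd17b4, the D-bifunctional enzyme, was apart and lower in both genotypes (−0.21 ± 0.14 in KO, −0.27 ± 0.14 in WT). Ehhadh, the L-bifunctional enzyme and a classical PPARα target of rodent liver, differed by −0.38 ± 0.22 in KO and −0.31 ± 0.22 in WT, with its highest value on KO PBS 3. The thiolase Acaa1a differed by 0.10 ± 0.17 in KO and −0.09 ± 0.17 in WT. Crot, which hands medium-chain products to mitochondria as carnitine esters, differed by 0.18 ± 0.24 in KO and −0.03 ± 0.24 in WT, or −0.26 without WT AngII 2.

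When WT AngII 2 was left out, all 31 members lay below 0 in WT with a median of −0.19, against −0.019 over all genes, and 22 were apart and lower, where 28.6% of genes were. Across the 31 members the WT difference therefore kept its direction without the array whose matrix and macrophage markers were high. Matrix markers were higher under AngII in both genotypes, with 7 of 9 above 0 in KO (median 0.66) and 9 of 9 in WT (1.22, and 0.39 without WT AngII 2). The mean level of these 9 genes was 10.18 to 10.48 on KO AngII arrays against 9.43 to 9.58 on KO PBS arrays, and 9.74 to 12.16 on WT AngII arrays against 9.34 to 9.76 on WT PBS arrays. Of the 8 macrophage markers 7 lay above 0 in each genotype, at medians of 0.31 in KO and 0.41 in WT, but without WT AngII 2 only 2 of 8 did in WT, at a median of −0.04. None of these markers was called. The part of these cells in the differences of the members was not tested. Cardiomyocyte markers had medians of 0.0064 in KO and −0.04 in WT. Within the low spike-in arrays, where KO AngII 3 and 4 can be set against KO PBS 4, the KO median was −0.16 with 26 of 31 members below 0. Averaged over genotype, the 28 other probe sets of 20 members had a median of −0.09, and 17 had the sign of the probe set used. On the probe sets used, the averaged median was −0.18 and 28 of 31 members were under 0. Of these 14 reached an unadjusted p under 0.05, all lower, where 6% of probe sets were lower and 3.63% higher, and 7 were apart and lower, where 1.01% of genes were (0.412% apart and higher), among them Decr1 (−0.47 ± 0.13), Acaa2 (−0.40 ± 0.11) and Acadvl (−0.29 ± 0.09; limma adjusted p = 0.483 each). All these averaged counts and differences include WT AngII 2. With 1 array left out at a time, the averaged median was −0.23 to −0.15, with 27 to 30 members below 0.

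Whether the AngII difference itself depended on PKCz was tested as an interaction, the difference in KO minus that in WT. It was above 0 for 20 of 31 members with a median of 0.08 and was called for none (0 of 31; 0% of probe sets). At an unadjusted p under 0.05 stood 0 members in limma, against 1.15% of probe sets higher and 0.482% lower. The values ran from −0.22 ± 0.30 for Cpt1a to 0.45 ± 0.27 for Acsl4 (95% interval −0.14 to 1.05). For Acadvl it was 0.29 ± 0.17 and for Etfb 0.22 ± 0.19. Single arrays moved this median by more than 1.5 times: it was 0.01 without WT AngII 2, 0.03 without KO PBS 2, 0.12 without KO PBS 3 and 0.17 without WT AngII 4, with 14, 11, 3 and 5 members below 0.

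Other genes of the pathway were read from further lists, and none of their genes was called in any of the 7 comparisons. Of 26 measured other enzymes of fatty acid oxidation, 20 lay below 0 in KO with a median of −0.14 and 23 in WT with a median of −0.16. Ech1, a dienoyl-CoA isomerase, had the smallest p in WT (−0.56 ± 0.18, and −0.32 without WT AngII 2), followed by the ketone-body and isoleucine thiolase Acat1 (−0.40 ± 0.16, and −0.22). Abcd3, a peroxisomal transporter, had the smallest p in KO (−0.39 ± 0.13), followed by H2-Ke6, a mitochondrial dehydrogenase (−0.64 ± 0.21). Of 15 measured transcriptional regulators, 12 lay below 0 in KO (median −0.12) and 11 in WT (−0.17, and −0.07 without WT AngII 2). They included Tfam, the mitochondrial transcription factor, at −0.26 ± 0.14 in KO and −0.38 ± 0.14 in WT, and Esrrg, an estrogen-related receptor, at −0.30 ± 0.15 in WT. In KO, Rxra, the partner receptor of the PPARs, differed by −0.28 ± 0.16. Of 10 genes of malonyl-CoA and AMPK control, which set the rate of carnitine palmitoyltransferase 1, 7 lay below 0 in KO and 9 in WT, or 10 without WT AngII 2. Acacb, the mitochondrial acetyl-CoA carboxylase, had the smallest p of them, at −0.31 ± 0.19 in KO and −0.46 ± 0.19 in WT. Mlycd, which breaks malonyl-CoA down, differed by −0.30 ± 0.20 in KO and −0.28 ± 0.20 in WT (−0.10 without WT AngII 2). Of 8 other uptake and binding genes, 5 lay below 0 in KO and 7 in WT, or 5 in WT without WT AngII 2, among them the acyl-CoA binding protein Dbi (−0.32 ± 0.13 in KO, −0.21 ± 0.13 in WT) and Gpihbp1, the capillary anchor of lipoprotein lipase (−0.32 ± 0.18 in WT, and −0.19 without WT AngII 2). The 38 measured subunits of the respiratory chain had medians of −0.02 in KO with 25 below 0 and −0.13 in WT with 37 below 0, or −0.07 with 30 below 0 without WT AngII 2.

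**Figure D3:**
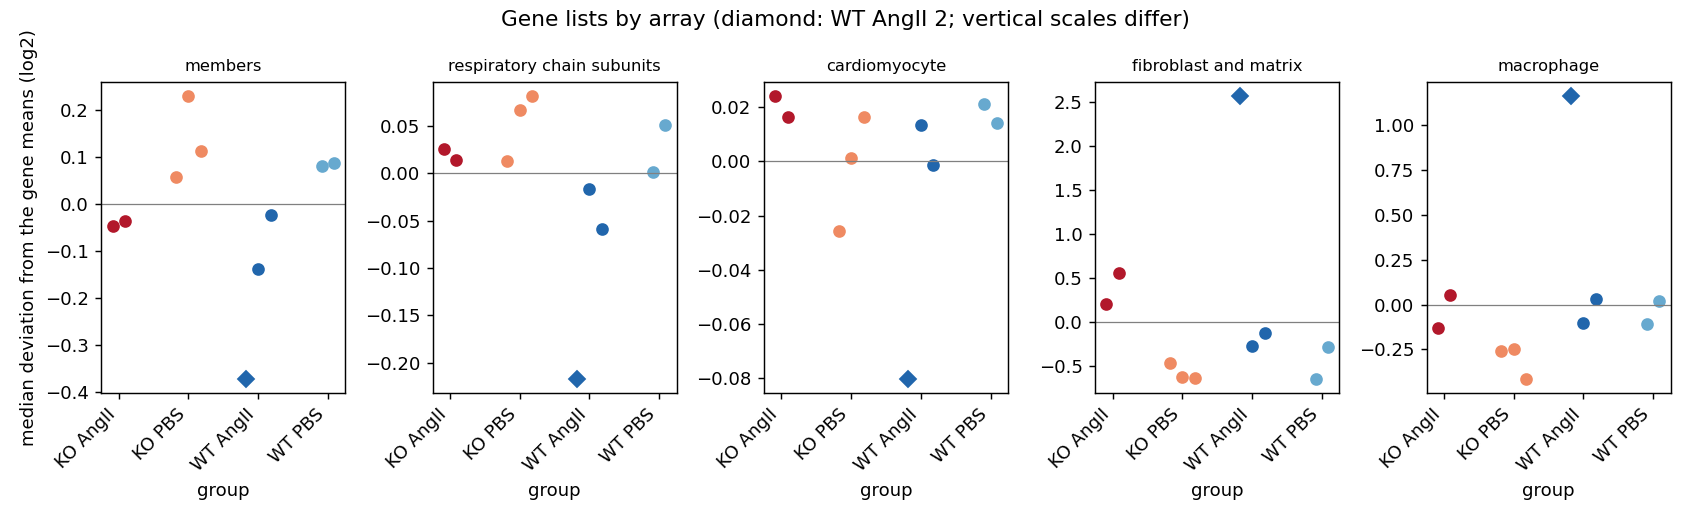
Median deviation from the gene means (log2) on each array, by group, for the 31 members, 38 respiratory chain subunits and markers of cardiomyocytes, fibroblasts and matrix, and macrophages; each point is an array, the diamond is WT AngII 2, and the vertical scales differ between panels. For the members all AngII arrays lie below all PBS arrays, while WT AngII 2 is the lowest array in the first 3 panels and the highest in the last 2, at −0.37 for the members and 2.57 for matrix markers.

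KO was compared with WT under each infusion and averaged over both. Of the 31 members only Hadh was called, higher in KO in the averaged comparison (1 of 31; 0.0444% of probe sets were called, 0.0111% higher and 0.0333% lower). The median difference of the members was 0.07 averaged, with 22 of 31 above 0, 0.09 under AngII with 20 above 0, and 0.04 under PBS with 20 above 0, against 0.0042 over all genes under AngII and −0.0027 under PBS. Under PBS the median was −0.0050 with 16 below 0 when KO PBS 3 was left out. In limma 0 members were called under AngII and 0 under PBS, where 0.0111% and 0.0133% of probe sets were called in either direction (0.00222% higher and 0.0111% lower under PBS), with smallest adjusted p of 0.601 and 0.389, both of Hadh. An unadjusted p under 0.05 was reached under AngII by 4 members, all higher, where 3.22% of probe sets were higher and 3.28% lower, and under PBS by 1 higher and 1 lower, where 2.72% and 3.58% were. Of the 28 other probe sets of 20 members, 18 had the sign of the probe set used under AngII and 19 under PBS. In the averaged comparison only 16 of the 28 did, and also 16 for the interaction. For the AngII differences 18 did in KO and 22 in WT.

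Hadh encodes the mitochondrial hydroxyacyl-CoA dehydrogenase of medium and short chains, and it also binds and restrains glutamate dehydrogenase in pancreatic beta cells. On its brightest probe set it read 13.20 and 13.75 on KO AngII arrays, 13.41, 13.45 and 13.79 on KO PBS arrays, 12.29, 12.64 and 12.74 on WT AngII arrays, and 12.68 and 12.76 on WT PBS arrays. All 5 KO arrays were above all 5 WT arrays, with means of 13.52 ± 0.25 and 12.62 ± 0.19 (SD, n = 5 each, KO and WT). Hadh rose in KO by 0.87 ± 0.12 averaged over infusions, a 1.83-fold difference (95% interval 0.60 to 1.14, limma adjusted p = 0.0425). It was higher by 0.92 ± 0.17 under AngII and by 0.82 ± 0.17 under PBS, and the interaction was 0.10 ± 0.25. AngII differed from PBS by −0.07 ± 0.17 in KO and by −0.17 ± 0.17 in WT, so that the gene called by genotype had small infusion differences.

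The other probe sets of Hadh were read as well. On the second brightest it read 12.17 and 12.79 on KO AngII arrays, 12.20, 12.50 and 12.89 on KO PBS arrays, 11.21, 11.13 and 11.42 on WT AngII arrays, and 11.51 and 11.52 on WT PBS arrays. KO and WT were again apart, by 1.12 ± 0.15 (limma adjusted p = 0.0224). On the dim remaining one it read 4.15 to 5.16 on KO arrays and 3.84 to 4.21 on WT arrays, which overlapped, with a difference of 0.66 ± 0.17 (0.269). The names of the brightest and the dimmest end in x_at, which marks probe sets with probes that also match other transcripts, and that of the second brightest does not. The call on the brightest probe set was lost in 12 of 19 other settings, and the difference was above 0 in all 19 (0.57 to 1.01). With the spike-in level as a block it was 0.63 and was not called. Among high spike-in arrays under PBS, KO PBS 2 and 3 against WT PBS 3 and 5, it was 0.71, and the arrays did not overlap. With 1 array left out at a time the call held in 2 of 10 fits, without KO AngII 3 (1.01, adjusted p = 0.0190) and without WT AngII 2 (0.81, 0.0267), and in the other 8 the adjusted p reached 0.253, without KO AngII 4 (0.73).

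**Figure D4:**
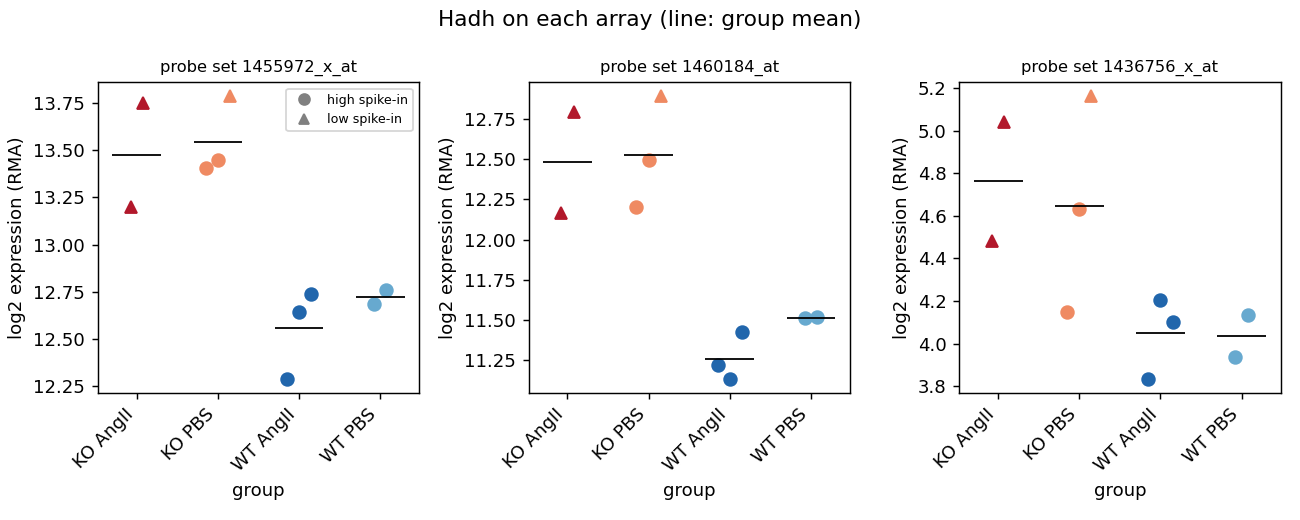
Log2 expression of Hadh on each array by group, on its 3 probe sets; each point is an array, horizontal lines are group means, and triangles mark the 3 arrays of low spike-in signal. KO and WT arrays do not overlap on the brightest and the second brightest probe set and overlap on the dimmest, and on the brightest the arrays of low spike-in signal hold the 2 highest KO values, 13.79 and 13.75, and the lowest, 13.20.

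Because Hadh was the member called by genotype, the 250 bases before its start are shown, from RefSeq on the mouse build GRCm38.p6 at chr3:131272102-131272351, minus strand, with the letters CCGCCC or GGGCGG in capitals. They are the core of the box bound by Sp1-type factors, searched on both strands, with 2 matches in this window.
Hadh promoter: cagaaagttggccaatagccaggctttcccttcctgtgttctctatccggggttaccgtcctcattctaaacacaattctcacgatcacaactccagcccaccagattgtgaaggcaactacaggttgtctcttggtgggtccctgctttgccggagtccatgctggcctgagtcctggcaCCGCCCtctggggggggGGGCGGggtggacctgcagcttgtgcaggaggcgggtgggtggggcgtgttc
This box was chosen after the sequences were seen. It was present in 21 of the 26 measured members that matched the RefSeq promoter table (80.8%, window of 250 bases before to 50 after the start), against 35.7% of the 32851 promoters of the table. The units differ, as a member gene counted if any of its promoters held the box (28 promoters in all), while the table was counted by promoter. Member promoters were also richer in G and C, with a median of 61%, against 52.7% for all promoters. A match is a description of letters, and no binding was measured here.

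The elements of the PPAR and estrogen-related receptors were searched in the same windows on both strands. Only exact matches to the letters given were counted, so variant elements and elements outside these windows were not covered. Members were again counted by gene and the table by promoter. The hexamer AGGTCA, the unit from which both elements are built, was present in 5 of 26 members (19.2%, against 16.3% of all promoters). The direct repeat AGGTCANAGGTCA was present in 0 of 26 members and 0.0396% of promoters, and the extended hexamer TCAAGGTCA in 0 of 26 members and 0.423% of promoters; both contain the hexamer. The 5 matches are shown on the strand of the gene with the hexamer, or its reverse complement, in capitals. They lie at chr3:153944877-153944893 (Acadm, minus strand), chr11:70015500-70015525 (Acadvl, minus), chr5:17836109-17836134 (Cd36, minus), chr19:3323197-3323222 (Cpt1a, plus) and chr7:140116489-140116514 (Echs1, minus), on the same build.
Acadm: gTGACCTtcgggctccg
Acadvl: ggatcaccctAGGTCAggtagaatac
Cd36: ctgcactttaTGACCTgagattttca
Cpt1a: gtttccttacTGACCTcctccccgca
Echs1: cagcccgctcAGGTCAcgggtccacc
Under AngII these 5 genes had differences between −0.29 (Cpt1a) and −0.04 (Echs1) in KO and between −0.44 (Acadvl) and −0.06 (Echs1, Cpt1a) in WT.

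Of the remaining members, 4 besides Hadh had an unadjusted p under 0.05 in the averaged comparison, 3 higher and 1 lower in KO, where 5.86% of probe sets were higher and 6.54% lower. Acsl4, a synthetase that prefers arachidonic acid, was the lower one. It read 6.96 and 7.04 on KO AngII arrays, 6.98, 7.02 and 6.68 on KO PBS arrays, 7.61, 6.98 and 7.32 on WT AngII arrays, and 7.55 and 7.76 on WT PBS arrays. Its groups were apart under PBS (−0.76 ± 0.19, 1.69-fold lower, limma adjusted p = 0.503) and overlapped under AngII (−0.31 ± 0.19). The averaged difference was −0.53 ± 0.14 (0.257), called with array weights (−0.53, 0.0202), a setting that called 3.47% of all probe sets, −0.32 with the spike-in level as a block, and −0.46 and 0.07 on its other probe sets. All 3 synthetases lay below 0 in KO relative to WT under either infusion, but Acsl3 stood at 0.08 under AngII without WT AngII 2.

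Cpt2 (0.24 ± 0.10), Hadhb (0.15 ± 0.07) and Etfb (0.21 ± 0.10) were the higher ones, with adjusted p of 0.391 to 0.403 in limma. For Cpt2 the values listed above for the AngII comparison put both KO groups above the WT group of the same infusion, and the same held for Hadhb. Under AngII 7 members were apart and higher in KO, Lpl, Cpt2, Acadvl, Hadhb, Hadh, Etfb and Etfdh, and 0 lower, where 13.5% of genes were higher and 14.5% lower. Under PBS 5 were apart and higher, Slc22a5, Cpt2, Hadha, Hadhb and Hadh, and Acsl4 was apart and lower, where 12.6% and 12.1% of genes were. Averaged, Hadh alone was apart, where 0.786% of genes were apart and higher and 0.759% apart and lower. Slc22a5 was higher by 0.20 ± 0.11 averaged, and by 0.54 ± 0.13 on its other probe set. Acadvl was higher in KO by 0.33 ± 0.12 under AngII and 0.04 ± 0.12 under PBS, and Lpl by 0.18 ± 0.08 under AngII against −0.03 ± 0.08 under PBS. With WT AngII 2 left out the AngII value was 0.19 for Acadvl, 0.11 for Lpl, 0.11 for Cpt2 and 0.16 for Etfb, each lower than with it. Then 8 members were apart and higher and 4 apart and lower, where 21.2% and 19.6% of genes were, and the members' median under AngII was 0.07 with 13 below 0.

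**Figure D5:**
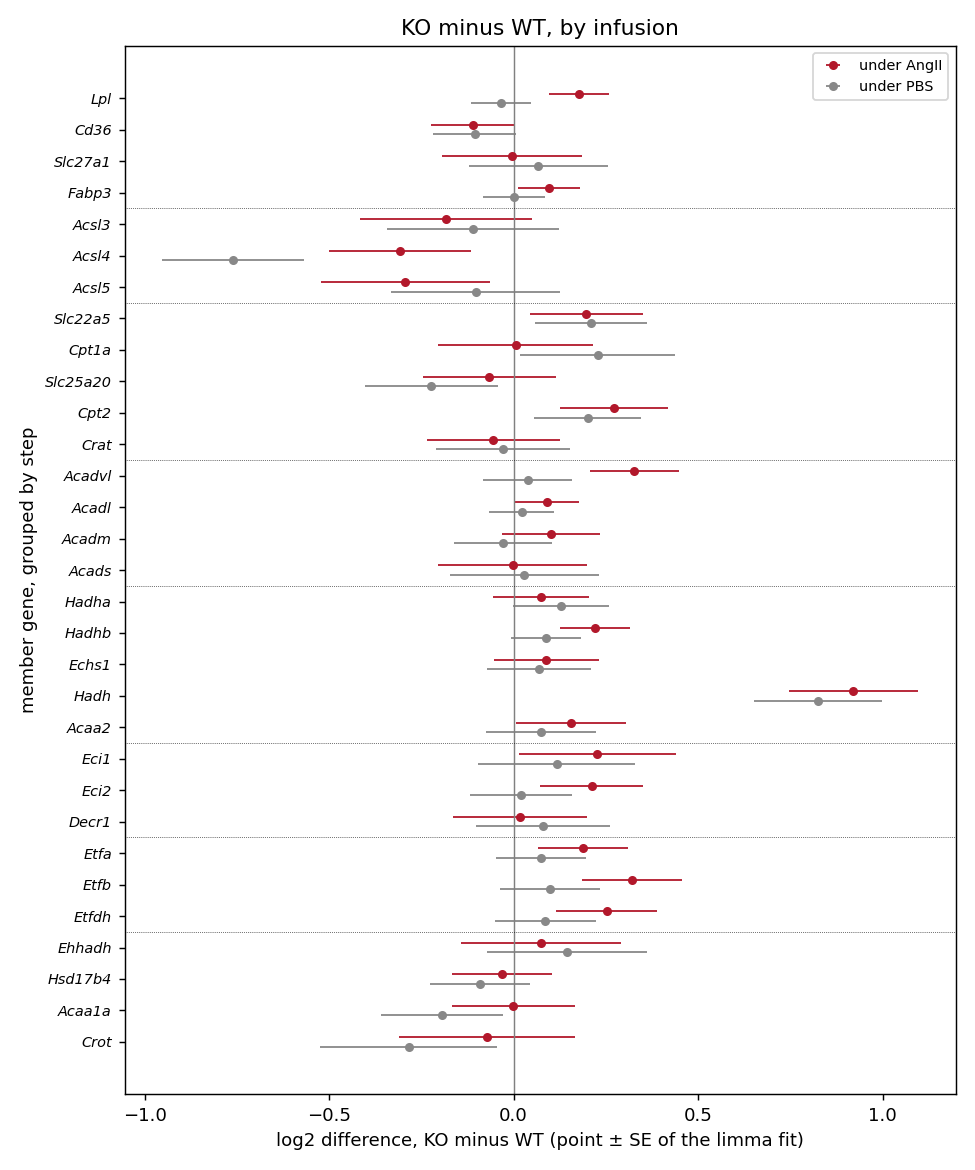
KO minus WT for each of the 31 members (rows, grouped by step), as the log2 difference (point) ± SE of the limma fit (line), under AngII and under PBS. Hadh lies farthest to the right under both infusions, at 0.92 and 0.82, and Acsl4 farthest to the left, at −0.31 and −0.76. Most other members lie within their errors of 0 or slightly to its right. Under each infusion 11 of the 31 lie left of 0, some by more than their SE, such as Slc25a20 under PBS (−0.22).

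By step, the electron transfer flavoprotein genes were higher in KO under AngII by a median of 0.25 with 3 of 3 above 0, and under PBS by 0.09. The auxiliary enzymes stood at 0.21 under AngII and 0.08 under PBS, and the trifunctional and short-chain enzymes at 0.15 and 0.09, with 5 of 5 above 0 under each. The values under AngII without WT AngII 2 were 0.10, −0.05 and 0.09, so that the auxiliary enzymes changed sign with this array. Carnitine shuttle genes stood at 0.01 under AngII (0.11 without that array) and 0.20 under PBS, acyl-CoA dehydrogenases at 0.10 (0.01 without it) and 0.03, and uptake genes at 0.05 and −0.02. Peroxisomal genes lay at −0.02 under AngII and −0.14 under PBS, with 3 of 4 below 0 each, and at 0.07 under AngII without WT AngII 2. Respiratory chain subunits were also higher in KO under AngII, 36 of 38 above 0 with a median of 0.11, or 0.04 with 11 below 0 without WT AngII 2, and 0.03 under PBS. With the spike-in level as a block the members' median was 0.12 under AngII with 8 below 0, and 0.05 under PBS with 12 below 0. That block rests on KO PBS 4 against KO PBS 2 and 3, so it cannot separate genotype from spike-in level among AngII arrays. Of 8 macrophage markers, 8 were lower in KO under AngII (median −0.40) and 8 under PBS (−0.32), but 6 of 8 were higher in KO under AngII (0.11) without WT AngII 2. Matrix markers were lower in KO under AngII for 7 of 9 (−0.34) with WT AngII 2, and higher for 8 of 9 (0.53) without it. Their part in the members' values was not tested.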

How the data were processed

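RNA of heart tissue was hybridised to 1-colour Affymetrix arrays from 6 µg of total RNA per sample, per the labels' protocols. The authors deposited log2 values for 45101 probe sets, computed by RMA according to the submitters' processing notes, with a version not given in the sources used. RMA equalises the distributions of the arrays, so a distorted array can shift others. The 64 control probe sets were left out. Symbols came from GEO's platform annotation, and 34741 of them were brought up to date through their Entrez numbers and RefSeq's GRCm38.p6 table: 34945 probe sets had 1 symbol, 932 several, and 9160 are unnamed here. Members and lists were chosen with earlier results of these data known, so counts and medians are descriptions.

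Groups came from the titles. Group means were fitted over all 10 arrays with limma 3.58.1 in R 4.3.3 (lmFit, eBayes with trend, two-sided, 6 residual and a median of 11.7 moderated degrees of freedom), in 7 comparisons, each adjusted by Benjamini-Hochberg over 45037 probe sets; the fit was tested on simulated data. Values on every array are given for members called, and for up to 4 members with the smallest p in each comparison; Slc25a20 was added after its values were seen, as the largest difference in WT with all arrays. No depth applies to arrays; their number limits the precision. Alternatives were other normalisations, filters, variance models, weights, blocks, probe sets, and arrays left out.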

Additional observations from a re-analysis of the deposited data

How the results depend on the processing

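The 2 or 3 arrays per group limit the precision of every value. Under all settings tried 0 members were called for AngII within KO or WT hearts, where up to 0.582% of probe sets in WT (array weights) and 0.0799% in KO (low spike-in arrays) were called; also kept was the sign of the AngII medians (−0.22 to −0.12 in KO, −0.27 to −0.12 in WT). The medians of KO minus WT were near 0, between −0.01 and 0.10 under PBS and 0.01 and 0.14 under AngII. With array weights 1 member, Hadh, was called under AngII (0.76), where 6.46% of probe sets were, and 2, Hadh and Acsl4, in the averaged comparison, where 3.47% were. The averaged count was 0 with eBayes without trend (Hadh 0.87, adjusted p = 0.129), with the spike-in level as a block (0.63), with all probe sets of a gene averaged (0.89, 0.250), and with that block and WT AngII 2 left out (0.57, 0.784); it was 0 to 1 with 1 array left out (Hadh 0.73 to 1.01). Arrays of the same title number showed little shared deviation from their group means (10 same-number pairs, r from −0.36 to 0.10, 1 over 0.1). With 2 or 3 arrays behind each group mean, these r values cannot show that the arrays were unpaired. With the title number as a replicate block the averaged count was 0 (Hadh 0.81, 0.0842), and the block changed no other call of a member. Hadhb turned to −0.014 on its second brightest probe set, where it was 0.15 on the brightest. On its other probe sets Prkcz differed by 0.10, the opposite sign, and −0.095 (exact permutation p = 0.12 and 0.18). On the strand of the gene only, 2 members in place of 5 held AGGTCA. The causes of these changes were not tested. The settings chosen with the data in view were the low spike-in arrays alone and the GC box.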

Other observations

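Of the genes that control the pathway, those with the smallest p between genotypes under AngII are given here. They lay on both sides of 0. Ppargc1b, a coactivator of the estrogen-related receptors, was higher in KO by 0.52 ± 0.14 and Esrra, one of these receptors, by 0.35 ± 0.15 (limma adjusted p = 0.734 each). Their interactions were 0.45 ± 0.19 and 0.39 ± 0.21. Without WT AngII 2 the genotype differences of Ppargc1b and Esrra were 0.49 and 0.24, and the interactions 0.42 and 0.27. Among AMPK subunits the catalytic Prkaa2 was higher in KO by 0.48 ± 0.17 and the regulatory Prkab2 lower, at −0.76 ± 0.25 (0.734 each). Without WT AngII 2 they stood at 0.49 and −0.48. Of the other enzymes, Mmut, the methylmalonyl-CoA mutase that handles the end product of odd chains, was higher in KO. It differed by 0.42 ± 0.16 under AngII, or 0.34 without WT AngII 2, and by 0.30 ± 0.16 under PBS. H2-Ke6 was lower in KO under AngII, at −0.55 ± 0.21, or −0.57 without WT AngII 2. None of these genes was called, and no explanation was tested.

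Of 5 adipocyte markers, Adipoq read 3.87 to 5.25 over the 10 arrays, Lep 4.30 to 4.75, Cidec 5.60 to 6.01, Retn 6.08 to 6.58 and Lipe, which heart muscle also expresses, 7.27 to 8.75. By mean over the arrays, Adipoq, Lep and Cidec lay at percentiles 14.5, 13.6 and 43.8 of all probe sets. Their differences therefore rest on dim signal. In KO relative to WT all 5 markers lay above 0 under AngII (median 0.22) and under PBS (0.09), and 4 of 5 under AngII without WT AngII 2 (0.18). None was called.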
